A study of Mus musculus with 8 samples.

Results

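mmu-miR-101a and mmu-miR-101b are mature microRNAs made from hairpins at separate genes, and both are known as regulators of Ezh2. They were chosen by their names on the array, with measured differences of these same arrays already known, and they are 2 of the 611 mouse microRNAs that the array names. Their levels and differences are therefore described here and not tested. The cells were C57BL/6J mouse embryonic fibroblasts of the genotype Csk-/-, so every group lacked Csk from its own genome. Csk is a kinase that phosphorylates the tail of Src family kinases and thereby restrains them, and c-Src is the family member whose activity transforms fibroblasts. The Csk+c-Src group received Csk and c-Src together, the c-Src group received c-Src alone, the Csk group received Csk alone and the mock group received an empty vector. Each group had 2 Cy3-labelled arrays, 8 in all, and so few arrays limit how small a difference can be seen. The sources used here do not give how the transfected cells were selected or whether a group was 1 clone or a pool.

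A microRNA pairs through its seed, the bases near its 5′ end, with sites in messenger RNAs and lowers their translation or stability. Ezh2 is the enzyme of polycomb repressive complex 2 that methylates histone H3 at a lysine linked with silent genes, and miR-101 was first tied to it in human cancer cells, where loss of miR-101 accompanies high EZH2. miR-101 is also known to act on other messenger RNAs, among them that of cyclooxygenase-2 in the mouse uterus. The arrays measured microRNAs and no messenger RNA, so Ezh2 itself was not measured here.

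The mature sequences are shown because the pair begin at different bases, which moves the seed. They are RefSeq records of the build GRCm38.p6, written 5′ to 3′ with bases 2 to 8 in capitals. miR-101a-3p lies at chr4:101346957-101346977 on the minus strand and miR-101b-3p at chr19:29135338-29135356 on the plus strand.
miR-101a-3p: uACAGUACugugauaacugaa
miR-101b-3p: gUACAGUAcugugauagcu
In these records miR-101b began 1 base before miR-101a. At the 3′ end miR-101a ran further, with 21 bases in all against 19 in miR-101b. Over the 18 bases that align, 17 were identical and 1 differed, written A16G with positions counted from the 5′ end of miR-101a. The seed windows were thus the same stretch set 1 base apart.

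The hairpins are shown with the mature arm in capitals, to set the near-identical arms against the rest of each precursor. Mir101a spans 83 bases at chr4:101346945-101347027 on the minus strand, inside the span of E130102H24Rik, and its mature arm covers bases 51 to 71. Mir101b spans 97 bases at chr19:29135279-29135375 on the plus strand, inside the span of Rcl1, a gene known for its part in ribosomal RNA processing, and its mature arm covers bases 60 to 78.
Mir101a: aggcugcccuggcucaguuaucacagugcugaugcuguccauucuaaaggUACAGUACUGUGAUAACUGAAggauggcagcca
Mir101b: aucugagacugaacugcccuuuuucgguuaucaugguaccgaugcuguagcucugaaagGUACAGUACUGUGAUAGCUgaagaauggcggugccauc
The other arm of Mir101a, mmu-miR-101a*, had 4 probes, and 1 of its 160 spots over all arrays was well above background. It was detected on 0 of the 8 arrays, so no level is given for it. Neither mmu-miR-101b* nor mmu-miR-101c is among the names on this array.

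Each member was read by 2 probes with 10 spots apiece on every array. All 160 spots of miR-101a and all 160 spots of miR-101b, counted over the arrays, were well above background, and both microRNAs were detected on 8 of 8 arrays. The mean signal of a single probe ran from 26.8 to 71.3 units for miR-101a and from 60.01 to 225.9 units for miR-101b. The spread between the spots of a probe, as a coefficient of variation, ran from 2.96% to 13.5% for miR-101a and from 2.96% to 7.05% for miR-101b. The sequences of the probes were not used here, and whether the near-identical members share signal on each other's probes was not tested. The level of one member is not set against that of the other, since each has its own probes.

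The level of a microRNA is given as log2 of its signal divided by the 75th percentile of its array, taken over the 187 microRNAs detected on all arrays. The difference between groups comes with the standard error of a limma fit over 243 microRNAs, those that both arrays of some group detected. In these bulk samples, fewer cells with a microRNA and less of it per cell cannot be told apart. The arrays shared 1 slide and 1 scan, and each slide column held a single group, so column and group cannot be told apart. Between 201 and 250 mouse microRNAs were detected per array, and arrays of the same group correlated across the tested microRNAs, which are not independent, at r = 0.9958 to 0.9985. Csk replicate 2 stood apart, with 696 spots left out as outliers against 270 to 351 on the other arrays and with the fewest microRNAs detected (201). Of 5 fibroblast and mesenchyme markers, 4 were detected (miR-145 was not), and their summed share of the signal was 1.13% to 1.16% in Csk+c-Src arrays, 1.12% to 1.15% in c-Src arrays, 1.20% to 1.22% in Csk arrays and 1.39% to 1.41% in mock arrays. Of the 7 epithelial markers 1 was detected on any array, as was 1 of the 6 blood cell markers, 2 of the 4 muscle markers, both endothelial markers and 3 of the 4 neural markers. The part of these markers in the results was not tested.

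miR-101a stood higher in c-Src cells than in the other groups. Its level was -3.15 and -3.19 in the Csk+c-Src arrays and -2.74 and -2.57 in the c-Src arrays. It was -3.33 and -3.24 in the Csk arrays and -3.07 and -3.09 in the mock arrays. Both c-Src arrays lay above all others, and the Csk arrays lay below all others. The unscaled signal, summed over the 2 probes, was 80.5 and 80.7 units in Csk+c-Src, 121 and 128 in c-Src, 70.3 and 64.9 in Csk and 74.9 and 74.2 in mock.

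miR-101b was also highest in c-Src cells on this scale, over a narrower range. Its level was -1.39 and -1.43 in the Csk+c-Src arrays and -1.37 and -1.28 in the c-Src arrays. It was -1.56 and -1.47 in the Csk arrays and -1.60 and -1.58 in the mock arrays. The 2 groups that had received c-Src lay above the 2 that had not, and no group overlapped another. The unscaled summed signal of miR-101b was 273 and 274 units in Csk+c-Src, 313 and 313 in c-Src, 240 and 222 in Csk, and 208 and 210 in mock.

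**Figure D1:**
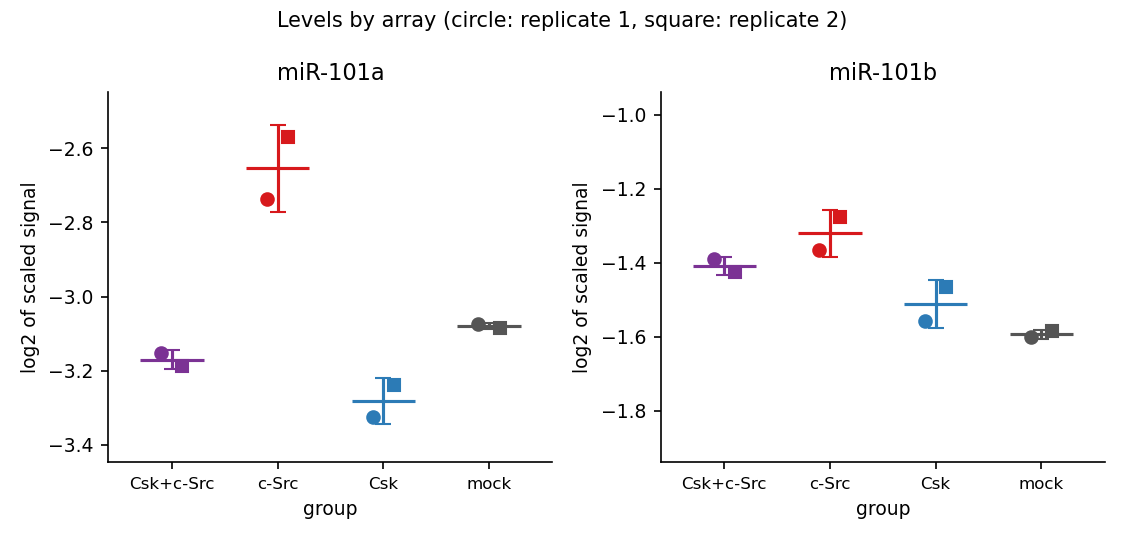
Level of miR-101a (left) and miR-101b (right) as log2 of the scaled signal, for each array of the Csk+c-Src, c-Src, Csk and mock groups; points are arrays, the long line is the group mean and the bar is 1 SD (n = 2). Both panels span 1 log2 unit. The c-Src arrays of miR-101a, at -2.74 and -2.57, stand above the rest, while the groups of miR-101b lie closer together.

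In order of mean level, miR-101a ran c-Src, mock, Csk+c-Src, Csk. The nearest arrays of c-Src and mock were 0.34 log2 apart, against at most 0.17 between arrays within either group. Mock and Csk+c-Src were 0.07 apart at their nearest, against at most 0.04 within either group. That order rests on the scaling, since the unscaled signal was higher in Csk+c-Src (80.5 and 80.7 units) than in mock (74.9 and 74.2). Csk+c-Src and Csk were 0.05 apart at their nearest, against 0.09 within a group, so these neighbours did not differ beyond the spread of their arrays. For miR-101b the order was c-Src, Csk+c-Src, Csk, mock. None of the 3 neighbouring pairs of miR-101b differed beyond that spread, with gaps of 0.03, 0.04 and 0.03 against 0.09 within a group each time.

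The first comparison set c-Src cells against mock cells, where c-Src was added without Csk. miR-101a averaged -2.65 ± 0.12 in c-Src and -3.08 ± 0.01 in mock (SD, n = 2 each), a difference of 0.43 log2 (SE 0.06), or 1.34-fold. miR-101b averaged -1.32 ± 0.06 in c-Src and -1.59 ± 0.01 in mock (SD, n = 2 each), a difference of 0.27 log2 (SE 0.05), or 1.21-fold. Ranked from the highest difference among the 243 tested microRNAs, miR-101a was at place 33 and miR-101b at place 57, and the median over all was 0. A microRNA set to the floor in both groups also has a difference of 0. For 2 of 2 members both c-Src arrays lay above both mock arrays, which was so for 34.2% of all tested microRNAs, and since the members were chosen with this contrast known, nothing is read from that count. With a normexp background correction (offset 50) the differences were -0.21 for miR-101a and 0.003 for miR-101b while the median of all microRNAs was -0.46, so both still lay above the median. Unscaled values gave 0.73 for miR-101a and 0.58 for miR-101b, beside a median of 0.31, and quantile normalization kept miR-101a at 0.36.

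The second comparison set Csk+c-Src cells against c-Src cells, where Csk was given back beside c-Src. It shares the c-Src arrays with the first. miR-101a averaged -3.17 ± 0.03 in Csk+c-Src and -2.65 ± 0.12 in c-Src (SD, n = 2 each), a difference of -0.52 log2 (SE 0.06), or 0.699-fold. With the percentile over all mouse microRNAs this difference was -0.29, and with normexp it was -0.18. miR-101b averaged -1.41 ± 0.02 in Csk+c-Src and -1.32 ± 0.06 in c-Src, a difference of -0.09 log2 (SE 0.05), or 0.941-fold, beside a median of -0.08 over all tested microRNAs. The Csk+c-Src arrays lay below the c-Src arrays for 2 of 2 members and for 46.1% of all. The sign for miR-101b turned with the scaling: the difference was 0.14 with the percentile taken over all mouse microRNAs, 0.03 with signals divided by the array's sum, and 0.06 without Csk replicate 2, an array of neither group that acts through the scaling. It was -0.13 without c-Src replicate 1, -0.02 without c-Src replicate 2 and -0.03 without Csk+c-Src replicate 2. Relative to the median of all microRNAs miR-101b differed by -0.004 on the reported scale, and miR-101a by -0.43.

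The third comparison set Csk cells against mock cells, where Csk was given back and no c-Src had been added. miR-101a averaged -3.28 ± 0.06 in Csk and -3.08 ± 0.01 in mock (SD, n = 2 each), a difference of -0.20 log2 (SE 0.06), or 0.870-fold. It was -0.38 with the percentile over all mouse microRNAs, with quantile normalization and with signals divided by the array's sum, -0.37 with normexp and -0.13 with unscaled values. miR-101b averaged -1.51 ± 0.06 in Csk and -1.59 ± 0.01 in mock, a difference of 0.08 log2 (SE 0.05), or 1.06-fold, beside a median of 0.07 over all. The Csk arrays of miR-101a lay below the mock arrays, as they did for 28.8% of all tested microRNAs, and those of miR-101b lay above, as for 45.7%. The direction of miR-101b turned to -0.09 with the percentile over all mouse microRNAs, -0.19 with quantile normalization, -0.08 with normexp, -0.09 with signals divided by the array's sum and -0.01 without Csk replicate 2. It was 0.13 without Csk replicate 1.

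The fourth comparison set Csk+c-Src cells against Csk cells, where c-Src was added beside Csk. miR-101a averaged -3.17 ± 0.03 in Csk+c-Src and -3.28 ± 0.06 in Csk (SD, n = 2 each), a difference of 0.11 log2 (SE 0.06), or 1.08-fold. miR-101b averaged -1.41 ± 0.02 in Csk+c-Src and -1.51 ± 0.06 in Csk, a difference of 0.10 log2 (SE 0.05), or 1.07-fold. The median over all tested microRNAs was -0.15, so both members stood 0.26 log2 above it. For 2 of 2 members the Csk+c-Src arrays lay above the Csk arrays, as for 25.5% of all. Without Csk replicate 2 the differences were 0.35 for miR-101a and 0.35 for miR-101b, and without Csk replicate 1 they were 0.07 and 0.06. Normexp gave -0.02 for miR-101a and 0.04 for miR-101b, beside a median of -0.13 over all. The change with c-Src in Csk cells minus the change with c-Src in cells without Csk was -0.32 log2 (SE 0.09) for miR-101a and -0.17 log2 (SE 0.07) for miR-101b, where the median over all microRNAs was -0.17. Without Csk replicate 2 these figures were -0.07 for miR-101a and 0.08 for miR-101b, beside a median of 0, and with the percentile over all mouse microRNAs they were 0.09 and 0.24, beside a median of 0.13. Normexp gave 0.19 and 0.04 beside a median of 0.29, and quantile normalization gave 0.01 and 0.02 beside a median of 0.01. With signals divided by the array's sum they were -0.03 and 0.12. Without c-Src replicate 2 the figure was -0.21 for miR-101a and -0.11 for miR-101b. The sign of both figures thus turned with the processing.

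The 4 differences share arrays, each group entering 2 of them, and are given side by side for that reason. Over 17 other ways of processing, miR-101a stayed above the median of all microRNAs in c-Src against mock (by 0.25 to 0.50 log2) and below it in Csk+c-Src against c-Src (at -0.52 to -0.19). miR-101b likewise stayed above the median in c-Src against mock (by 0.21 to 0.46). In Csk against mock miR-101a stayed below it (at -0.36 to -0.08). In Csk+c-Src against Csk miR-101a stayed above it (by 0.11 to 0.35), as did miR-101b (by 0.10 to 0.34). Between Csk+c-Src and c-Src, miR-101b lay between -0.17 and 0.05 of the median, on the same side of it in 9 of the 17. Between Csk and mock, miR-101b lay between -0.17 and 0.21 of the median, on the same side in 11 of the 17. The ends at -0.52, 0.11 and 0.10 came without a detection filter, where the median over 611 microRNAs was 0. A factor that scales a whole array moves a microRNA and the median nearly alike, so rescaling could hardly change these figures. For miR-101a in c-Src against mock the percentile over all mouse microRNAs, the array's sum and the unscaled values all gave 0.43. The 17 are thus not as many separate checks.

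**Figure D2:**
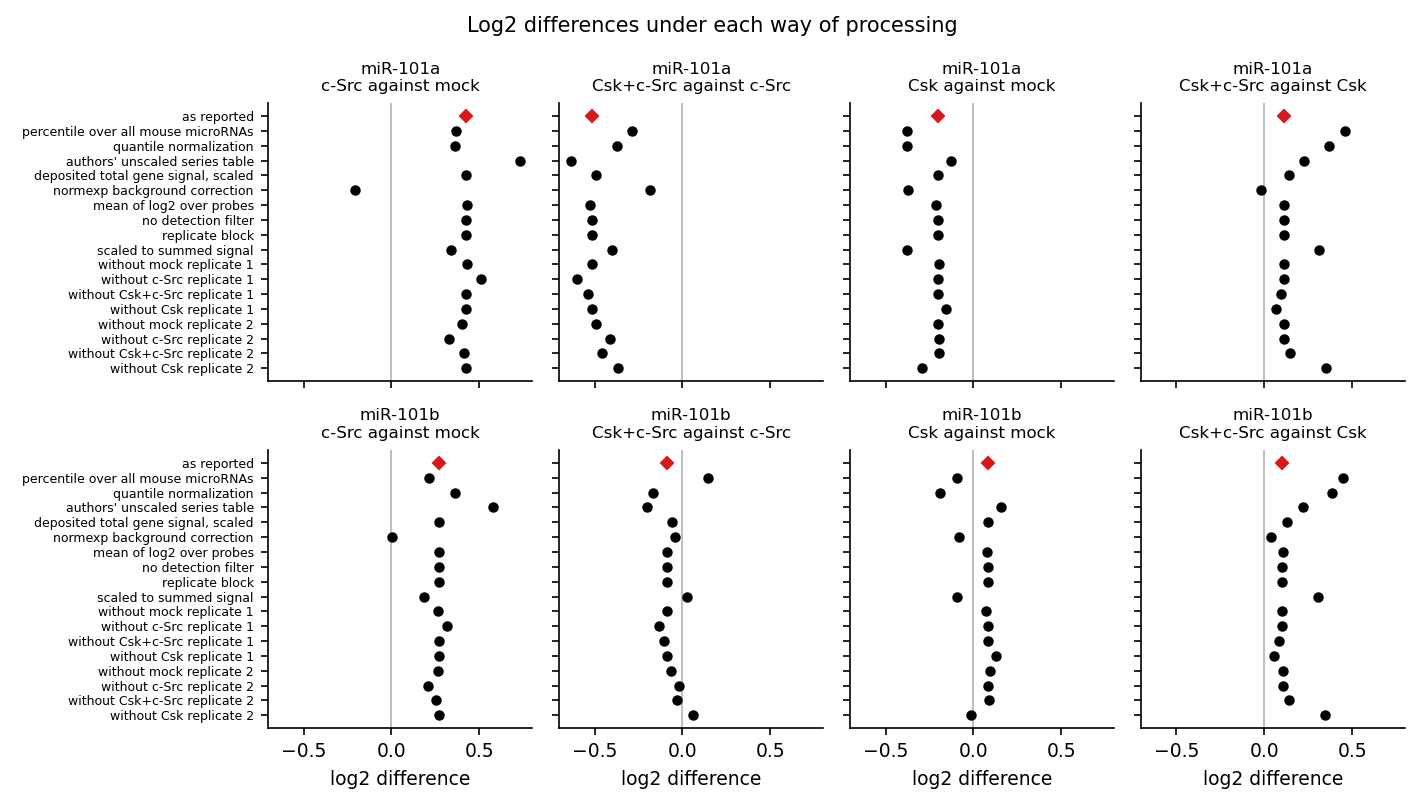
Log2 difference of miR-101a (top) and miR-101b (bottom) in the 4 comparisons, with 1 row for each way of processing; the red diamond is the value as reported and the line marks 0. The normexp row moves miR-101a in c-Src against mock to -0.21, and the points of miR-101b in the second and the third comparison fall on both sides of 0.

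The separate probes of a member gave like differences. With the probes of a member always in the same order, those of miR-101a gave 0.44 and 0.41 log2 for c-Src against mock and -0.59 and -0.46 for Csk+c-Src against c-Src. They gave -0.27 and -0.15 for Csk against mock and 0.12 and 0.10 for Csk+c-Src against Csk. The probes of miR-101b gave 0.27 and 0.27 for c-Src against mock, -0.08 and -0.09 for Csk+c-Src against c-Src, 0.06 and 0.09 for Csk against mock, and 0.12 and 0.10 for Csk+c-Src against Csk. In all 4 comparisons the groups did not overlap on either probe of either member. Counted by microRNA, groups lay apart in the same directions for 25.5% to 46.1% of all tested, so nothing is read from that. The share over all probes was not taken. The probes of a microRNA share the RNA and the array, so they are no replicates of a group.

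**Figure D3:**
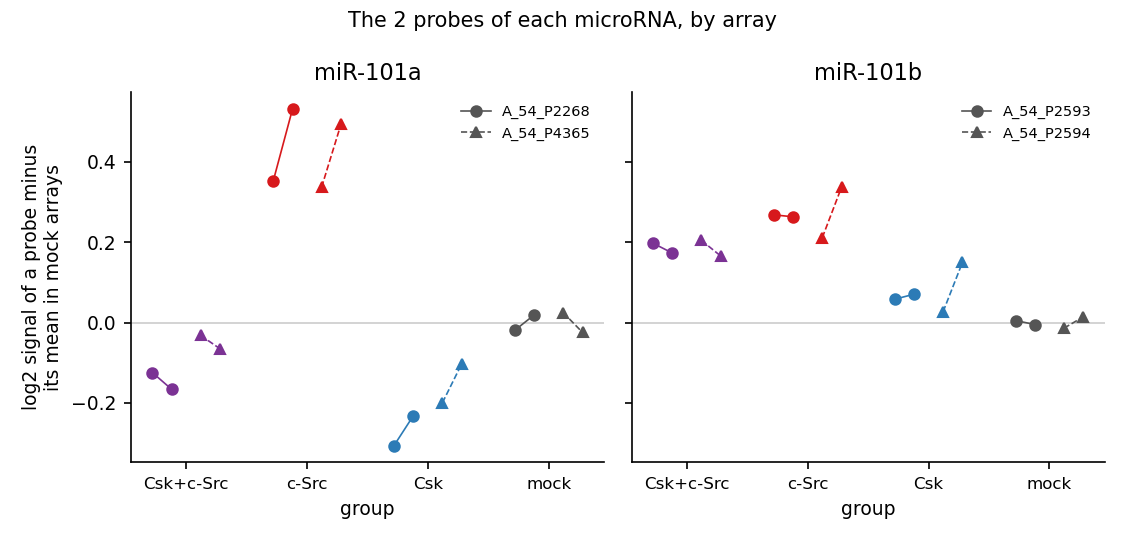
Log2 scaled signal of each probe minus its own mean in the mock arrays. The panels show miR-101a (left) and miR-101b (right) in the Csk+c-Src, c-Src, Csk and mock groups. Each point is 1 array, circles and triangles are the 2 probes, and thin lines join the 2 arrays of a group. On both probes of miR-101a the c-Src arrays lie above 0 and the Csk+c-Src and Csk arrays below it; on both probes of miR-101b all 3 groups lie above 0.

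The members changed unequally. Set to 0 at the mock mean, log2 miR-101a minus log2 miR-101b was -0.274 and -0.276 in the Csk+c-Src arrays and 0.116 and 0.194 in the c-Src arrays. It was -0.281 and -0.285 in the Csk arrays and 0.014 and -0.014 in the mock arrays. Any factor that scales a whole array cancels in this difference. The 4 arrays with Csk given back lay between -0.285 and -0.274 and below the 4 arrays without it. The share of other pairs of microRNAs that split in this way was not taken, so nothing is read from the split. Group means were -0.28 ± 0.001 in Csk+c-Src, 0.15 ± 0.06 in c-Src and -0.28 ± 0.003 in Csk (SD, n = 2 each). Between Csk+c-Src and c-Src the members thus differed by -0.43 log2, with a range of -0.47 to -0.39 when single arrays were left out, -0.20 under quantile normalization and -0.14 under normexp. Between c-Src and mock the figure was 0.15, but -0.002 under quantile normalization and -0.21 under normexp. The difference was looked for after the levels had been seen and was not tested.

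**Figure D4:**
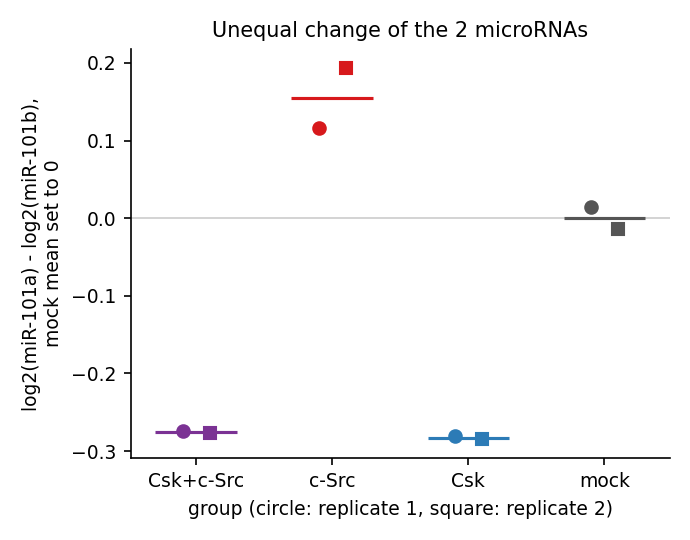
Log2 signal of miR-101a minus log2 signal of miR-101b, with the mock mean set to 0, for each array of the Csk+c-Src, c-Src, Csk and mock groups; circles and squares are replicates 1 and 2 and lines are group means. The Csk+c-Src and Csk arrays lie together near -0.28, below the c-Src and mock arrays. How many other pairs of microRNAs split so was not counted.

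The microRNAs with the most similar course over the 8 arrays were found by the root-mean-square difference of log2 values centred on each microRNA's own mean, among the 186 others detected on all arrays. Nearest to miR-101a were miR-674* (0.081 log2), let-7i (0.093), miR-31* (0.112), miR-125b-5p (0.112) and miR-21 (0.146). miR-101b came at place 14 (0.188). miR-125b-5p, for example, averaged 3.14 ± 0.01 in Csk+c-Src, 3.72 ± 0.10 in c-Src, 2.98 ± 0.04 in Csk and 3.01 ± 0.07 in mock. Nearest to miR-101b were miR-24-2* (0.043), miR-18a (0.049), miR-17* (0.071), miR-23a (0.077) and miR-151-3p (0.087). The last was set to the floor on both Csk+c-Src and both mock arrays, and on the lower array of c-Src and of Csk. Its place thus rests on few measured values. Some of these neighbours share a transcript, as miR-18a and miR-17* do in the miR-17 cluster. From the side of miR-101b, miR-101a came at place 44. These microRNAs were picked for their likeness and are not tested.

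Seed relatives were sought with the hexamer ACAGUA, bases 2 to 7 of miR-101a, anywhere within bases 1 to 8. It occurred in 6 of 1679 mature mouse names of the RefSeq table. Beside the pair, miR-101c and miR-199b-3p, which has the same sequence as miR-199a-3p, these were miR-144, known from red blood cell precursors and also reported to act on Ezh2, and miR-199a-3p, a microRNA of mesenchyme. They are shown for the place of the hexamer, with bases 2 to 8 in capitals. It starts at base 2 in miR-144-3p, as in miR-101a, and at base 1 in miR-199a-3p. miR-144-3p lies at chr11:78073047-78073066 on the plus strand, and miR-199a-3p lies at both chr1:162217883-162217904 on the plus strand and chr9:21496498-21496519 on the minus strand.
miR-144-3p: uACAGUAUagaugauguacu
miR-199a-3p: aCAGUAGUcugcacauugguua
miR-144 was detected on 0 of 8 arrays. miR-199a-3p averaged 0.80 in Csk+c-Src, 0.79 in c-Src, 0.81 in Csk and 1.06 in mock (n = 2 each). It fell by 0.27 log2 in c-Src against mock (SE 0.07, limma adjusted p = 0.0296, both arrays lower) and by 0.25 in Csk against mock (limma adjusted p = 0.0320, both arrays lower). The first call was lost when any single array but a Csk array was left out (adjusted p = 0.0543 without mock replicate 1 to 0.221 without mock replicate 2), and its sign turned to 0.03 with unscaled values. The second was lost without c-Src replicate 2, Csk replicate 1, either Csk+c-Src array or mock replicate 2 (adjusted p = 0.0629 to 0.265). Its differences were 0.01 in Csk+c-Src against c-Src (limma adjusted p = 0.964) and -0.01 in Csk+c-Src against Csk (limma adjusted p = 0.923). The last rested on the scaling: it was 0.33 with the percentile over all mouse microRNAs (limma adjusted p = 0.0131), 0.23 with quantile normalization (0.000406), 0.19 with signals divided by the array's sum (0.00888) and 0.26 without Csk replicate 2 (0.0212).

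The other microRNAs reported to act on Ezh2 formed a list of 18 that leaves out the pair: the let-7 family with miR-98, miR-26a, miR-26b, miR-25, miR-30d, miR-214, miR-138, miR-124, miR-137 and miR-144. Of these 14 were tested, and miR-138, miR-124, miR-137 and miR-144 were detected on 0 arrays. Most of these reports come from human cells. The list, like the pair, was chosen with earlier results of these data known, so its counts and p-values are no independent test. Most of the 14 are the let-7 family with miR-98, and miR-26a and miR-26b are paralogues. The counts and medians below are thus not of 14 independent microRNAs. Whether such relatives share signal on each other's probes was not tested. A microRNA was called where its limma p, adjusted over all 243, was under 0.05.

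In c-Src against mock 4 of 14 rose and 2 fell, where 25.9% of all tested microRNAs rose and 18.5% fell, and the list's median was 0.13 against 0 over all. miR-25, a member of the miR-106b cluster, averaged 1.17 ± 0.03 in c-Src and 0.77 ± 0.06 in mock, a rise of 0.40 (SE 0.04, limma adjusted p = 0.000839, both arrays higher). miR-26a, which lies in an intron of a Ctdsp-family gene and is known to rise as muscle cells differentiate, averaged 1.39 ± 0.05 in c-Src and 1.64 ± 0.06 in mock. It fell by 0.25 (limma adjusted p = 0.00976, both arrays lower), but the adjusted p was 0.131 without mock replicate 2 and 0.0576 without Csk+c-Src replicate 2, and the sign turned to 0.06 in the unscaled deposited table. The count called was 6, against 3 without mock replicate 1 or c-Src replicate 2, 2 without mock replicate 2 and 1 without Csk+c-Src replicate 2. With signals divided by the array's sum 4 rose and 4 fell, and with unscaled values 10 rose and 0 fell. Each replicate number lay in its own slide row, and with that number as a block 7 rose and 3 fell.

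In Csk+c-Src against c-Src, 0 of 14 rose and 6 fell, where 15.6% of all rose and 29.2% fell, and the list's median was -0.11 against -0.08 over all. miR-26a averaged 0.999 ± 0.03 in Csk+c-Src and 1.39 ± 0.05 in c-Src, a fall of 0.39 (limma adjusted p = 0.00152, both arrays lower). miR-25 averaged 0.83 ± 0.01 in Csk+c-Src and 1.17 ± 0.03 in c-Src and fell by 0.34 (limma adjusted p = 0.00139, both arrays lower). Neither passed with the percentile over all mouse microRNAs (adjusted p = 0.0761 and 0.210) or with normexp (0.105 and 0.120). The 6 calls became 2 without Csk+c-Src replicate 1 or 2, mock replicate 2, c-Src replicate 2 or Csk replicate 2, and with the percentile over all mouse microRNAs 1 rose and 0 fell.

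In Csk against mock 9 of 14 rose and 0 fell, where 38.3% of all rose and 16.9% fell, and the list's median was 0.31 against 0.07 over all. miR-26b, the paralogue of miR-26a, averaged 0.95 ± 0.02 in Csk and 0.44 ± 0.06 in mock, a rise of 0.52 (limma adjusted p = 0.000394, both arrays higher). miR-214, a mesenchymal microRNA of the Dnm3os transcript, averaged -0.41 ± 0.07 in Csk and -0.97 ± 0.05 in mock, a rise of 0.55 (limma adjusted p = 0.00200, both arrays higher) that did not pass with normexp (adjusted p = 0.0868). miR-101a had a difference of -0.20 here, and the lowest of the list was let-7i at -0.06, not called. The 9 calls became 6 without Csk replicate 2, and with the percentile over all mouse microRNAs 4 rose and 0 fell. With quantile normalization 6 rose and 1 fell, and the list's median was 0.03 against -0.01 over all. With signals divided by the array's sum 7 rose and 2 fell.

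In Csk+c-Src against Csk 0 of 14 rose and 10 fell, where 19.3% of all rose and 41.6% fell, and the list's median was -0.43 against -0.15 over all. miR-214 averaged -1.37 ± 0.002 in Csk+c-Src and -0.41 ± 0.07 in Csk, a fall of 0.96 (limma adjusted p = 0.000204, both arrays lower). miR-26a fell by 0.71 (limma adjusted p = 0.000110) and miR-26b by 0.59 (limma adjusted p = 0.000174), each with both Csk+c-Src arrays below both Csk arrays. The pair had differences of 0.11 and 0.10 in this comparison, and let-7i, a list member that was not called, had 0.16. The 10 calls became 6 without Csk+c-Src replicate 1 and 5 without Csk replicate 2, and with the percentile over all mouse microRNAs 2 rose and 3 fell.

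The c-Src effect with Csk minus that without it was called lower for 10 of the 14 and higher for 0, where 37% of all tested microRNAs were called lower and 13.6% higher (limma interaction, adjusted p under 0.05). The list's median was -0.46, against -0.17 over all. The 10 calls became 2 with the percentile over all mouse microRNAs, 5 with signals divided by the array's sum, 0 with normexp and 14 with unscaled values, and 6 were lower and 1 higher with quantile normalization. They became 5 without c-Src replicate 2, 3 without Csk+c-Src replicate 2 and 4 without Csk replicate 2. The test was added after the values had been seen.

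**Figure D5:**
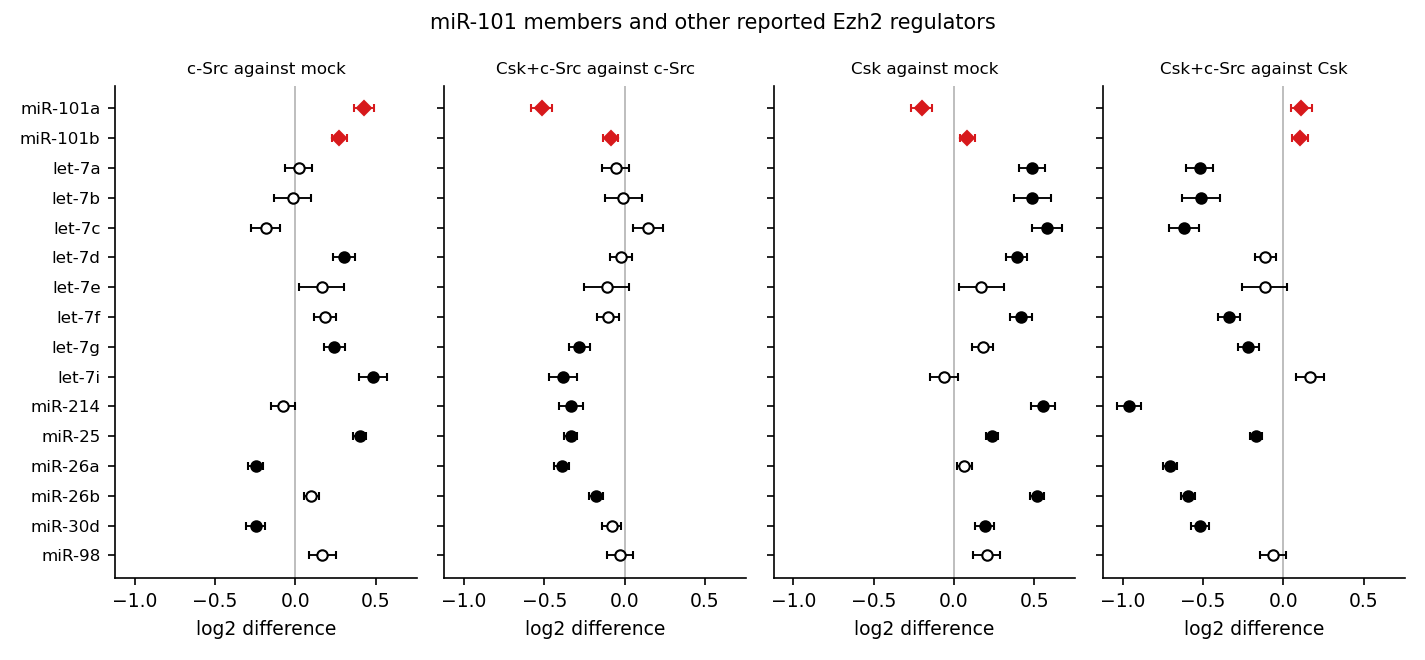
Log2 difference with its limma standard error for miR-101a and miR-101b (red diamonds, not tested) and the 14 tested microRNAs reported to act on Ezh2 (circles, filled where the limma adjusted p over all 243 was under 0.05), in the 4 comparisons. In Csk+c-Src against Csk the 10 filled circles lie below 0, while the diamonds lie at 0.11 and 0.10 and let-7i, not called, lies at 0.16.

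A second list held microRNAs that Ezh2 is reported to hold down in human cancer cells and that act on polycomb repressive complex 1, the partner complex. It too was chosen with earlier results of these data known. Of its 5, miR-181a and miR-181b were tested, miR-200c and miR-203 were detected on 0 arrays, and miR-200b was not detected on both arrays of any group. miR-181a averaged -3.45 ± 0.06 in c-Src and -3.17 ± 0.01 in mock and fell by 0.28 (limma adjusted p = 0.0211, both arrays lower), and miR-181b fell by 0.30 (limma adjusted p = 0.0100, both arrays lower), where 18.5% of all tested microRNAs were called lower. These 2 calls became 0 without c-Src replicate 1 and 1 without mock replicate 1 or 2, c-Src replicate 2 or Csk+c-Src replicate 2, and in the unscaled table the differences were 0.03 and 0.002. In Csk against mock miR-181a fell by 0.53 (limma adjusted p = 0.00154) and miR-181b by 0.30 (limma adjusted p = 0.00671), each with both arrays lower, where 16.9% of all were called lower, although neither passed with normexp (adjusted p = 0.182 and 0.215) and miR-181b did not with unscaled values (adjusted p = 0.143). In Csk+c-Src against c-Src miR-181a was called lower at -0.24 (limma adjusted p = 0.0354) and miR-181b, at -0.08, was not, where 29.2% of all were called lower; the single call was lost when any array but Csk replicate 1 was left out. In Csk+c-Src against Csk neither was called by limma, with 0.01 for miR-181a and -0.08 for miR-181b, and without Csk replicate 2 1 of 3 list members then tested was called, higher. Both were called higher with the percentile over all mouse microRNAs (miR-181b at 0.26, limma adjusted p = 0.0185) and with quantile normalization (miR-181b at 0.17, limma adjusted p = 0.0415), and 1 was called higher with signals divided by the array's sum. In the reported fit 19.3% of all were called higher.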

How the data were processed

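MicroRNAs of 4 groups of 2 samples, which the labels call biological replicates, were measured on 1-colour Agilent arrays. No source used here says whether they came from separate cultures, so p-values measure the spread between these arrays, which may be technical. Each deposited spot intensity was read with Agilent Feature Extraction 9.5.3.1, per the file headers, and a fitted background had been subtracted. The deposited series table holds the total gene signal as an unscaled intensity, as checked against the array files. The members and the lists were chosen with earlier results of these data known.

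The processed signals of a probe's spots without outlier flags were averaged, then summed over probes, divided by the array's 75th percentile (611.9 to 805.7 units) over microRNAs detected on all arrays, set to at least 0.01933 (log2 -5.69) and taken to log2. In Csk replicate 1 this signal had been rounded, by at most 0.493%. A linear model with 4 group means was fitted to all 8 arrays with limma 3.58.1 (R 4.3.3; 4 residual and 5.09 total degrees of freedom). A call needed a two-sided p under 0.05 after Benjamini-Hochberg adjustment over the 243 tested microRNAs. The fit was tested on simulated data. Named are the members, their other arms, microRNAs with the shared hexamer, the 5 nearest to each member, and up to 4 called members per list and comparison. The unequal change of the members, the scaling to summed signal and the test of differing c-Src effects were added after values had been seen. Cell type markers were fixed as lists. Sequences and host genes are RefSeq's. Alternatives were the scaling, quantile normalization, the deposited tables, normexp, the summary over probes, the detection filter, a replicate block and leaving out each array. Plots were made with Python 3.11.15 and matplotlib 3.10.9.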

Additional observations from a re-analysis of the deposited data

Results flagged for a closer look

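The Csk effect on miR-101b ran in opposite directions on the reported scale. It was -0.087 log2 in Csk+c-Src against c-Src and 0.082 log2 in Csk against mock, with both arrays of each group on that side, and the difference between these effects was not tested. The medians over all microRNAs were -0.08 and 0.07, which leaves -0.004 and 0.01 for miR-101b, and the arrays lay apart in the same way for 46.1% and 45.7% of all tested microRNAs. Both values turned sign with the percentile taken over all mouse microRNAs, to 0.14 and -0.095, with signals divided by the array's sum, to 0.028 and -0.092, and without Csk replicate 2, to 0.063 and -0.014.

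For 6 microRNAs named from the list reported to act on Ezh2, the c-Src effect was called different with and without Csk. List members were named for the largest called differences in the comparisons that also make up this figure, which favours large values. They are 6 of the 10 among 14 tested list members that passed, where 37% of all tested microRNAs passed in the same direction. The effect with Csk (Csk+c-Src against Csk) minus the effect without it (c-Src against mock) was -0.89 log2 for miR-214 (limma interaction, adjusted p = 0.00193), -0.69 for miR-26b (adjusted p = 0.000709) and -0.57 for miR-25 (adjusted p = 0.000823). It was -0.46 for miR-26a (adjusted p = 0.00331), -0.43 for let-7c (adjusted p = 0.0403) and -0.41 for let-7d (adjusted p = 0.0169). let-7b (adjusted p = 0.0554) and let-7i (adjusted p = 0.0852) did not pass. All p-values are limma's, adjusted over all 243 microRNAs, and the median over all was -0.17. With the percentile over all mouse microRNAs the value was -0.48 for miR-214 and -0.29 for miR-26b, which still passed, and -0.16 for miR-25, -0.05 for miR-26a, -0.03 for let-7c and -0.005 for let-7d, which did not. With quantile normalization let-7c turned to 0.34 (adjusted p = 0.00370) and miR-26a did not pass (adjusted p = 0.264), and with normexp none of the 6 passed (adjusted p = 0.0853 to 0.184). let-7c and let-7d did not pass without a detection filter (adjusted p = 0.177 and 0.0830) or with signals divided by the array's sum (0.325 and 0.147). The call of let-7c was lost when any single array was left out, that of let-7d without mock replicate 2, c-Src replicate 2, either Csk+c-Src array or Csk replicate 2, and that of miR-26a without Csk+c-Src replicate 2 (adjusted p = 0.0572). miR-25, for example, differed by -0.17 in Csk+c-Src against Csk and by 0.40 in c-Src against mock, although the first of these turned to 0.17 with the percentile over all mouse microRNAs, 0.04 with quantile normalization, 0.03 with signals divided by the array's sum and 0.04 without Csk replicate 2. For miR-101a and miR-101b the same figure changed sign with the scaling, as given above. This test was added after the values had been seen.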

How the results depend on the processing

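Of 136 recomputed differences of the pair, 34 repeat the reported value and say nothing of stability, and 92 of the other 102 kept its sign. The cause of the changes below was not tested, beyond what each setting does by construction. The probes of miR-101a averaged 26.8 to 71.3 units, where the normexp offset was 50. With 2 arrays per group, in 1 slide column each, small differences cannot be resolved.

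In the order c-Src against mock, Csk+c-Src against c-Src, Csk against mock, Csk+c-Src against Csk, the reported differences were 0.43, -0.52, -0.20 and 0.11 for miR-101a and 0.27, -0.09, 0.08 and 0.10 for miR-101b. With the percentile over all mouse microRNAs, miR-101a gave -0.29, -0.38 and 0.46 in the last 3, and miR-101b gave 0.21, 0.14, -0.095 and 0.45. Quantile normalization gave -0.37, -0.38 and 0.37 for miR-101a in the last 3, and 0.36, -0.17, -0.19 and 0.38 for miR-101b. The unscaled deposited table, whose median over all microRNAs was 0.31 in the first comparison and -0.23 in the second, gave 0.73, -0.63, -0.13 and 0.23 for miR-101a and 0.58, -0.20, 0.16 and 0.22 for miR-101b. Normexp, with medians of -0.46 in the first and -0.29 in the third, gave -0.21, -0.18, -0.37 and -0.021 for miR-101a, and 0.0026, -0.081 and 0.039 for miR-101b in the first, the third and the fourth. Signals divided by the array's sum gave 0.34, -0.40, -0.38 and 0.31 for miR-101a and 0.19, 0.028, -0.092 and 0.31 for miR-101b. The change of miR-101a minus that of miR-101b in c-Src against mock turned from 0.15 to -0.0022 with quantile normalization and to -0.21 with normexp.

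Over all microRNAs 108, 109, 134 and 148 were called in that order. Normexp called 28, 19, 19 and 39, and without a detection filter 66 were called in the first. The split of higher and lower calls was 63 and 45, 38 and 71, 93 and 41, and 47 and 101, against 41 and 52, 63 and 39, 62 and 62, and 82 and 58 with the percentile over all mouse microRNAs. It was 54 and 78, 59 and 58, 76 and 72, and 66 and 78 with signals divided by the sum, and 126 and 23, 26 and 91, 98 and 43, and 64 and 78 in the unscaled table. Quantile normalization gave 55 and 57, 72 and 62, and 72 and 69 in the last 3. Of the 14 reported Ezh2 regulators, called 6, 6, 9 and 10 times, the percentile over all mouse microRNAs called 1, 4 and 5 in the last 3, normexp called 2, 0, 2 and 5, the unscaled values 10 in the first, and no detection filter 2 and 2 in the first 2. The polycomb complex 1 list had 2, 1, 2 and 0 calls. It had 0 and 2 in the second and the fourth with the percentile over all mouse microRNAs and with quantile normalization, 0 and 1 in the first and the third in the unscaled table, and 0, 0 and 0 in the first 3 with normexp. It also had 0 in the second with the scaled total gene signal and with the mean over probes, 0 and 0 in the first 2 without a filter, and 1 in the fourth with signals divided by the sum. All calls in the fourth were higher.

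Leaving out single arrays gave 0.33 to 0.51, -0.60 to -0.37, -0.29 to -0.16 and 0.067 to 0.35 for miR-101a, and 0.21 to 0.32, -0.13 to 0.063, -0.014 to 0.13 and 0.058 to 0.35 for miR-101b. Over all microRNAs 56 to 112, 82 to 112, 109 to 137 and 111 to 147 were called, with 56 without mock replicate 2. The reported Ezh2 regulators had 1 to 7, 2 to 6, 6 to 9 and 5 to 10 calls, and the polycomb complex 1 list had 0 to 2, 0 to 1, 2 and 0 to 1. Both values of miR-101b that changed sign did so without Csk replicate 2.

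The labels number the replicates alike in each group. Deviations of same-numbered arrays from their group means correlated at r = 0.44, 0.29 and 0.27 between the Csk+c-Src, c-Src and mock groups and at 0.08, -0.05 and -0.09 between Csk and these in turn. Each number also lay in its own slide row. Not every pair correlated above 0.1 and no label says what the numbers share, so they were not taken as pairs. With the replicate number, which is also the slide row, as a block, the reported Ezh2 regulators had 10 calls in c-Src against mock, and no other count moved by over 1.5 times.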
